A study of Mus musculus with 62 samples.

Results

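The mitochondrial DNA (mtDNA) genes that the counts cover encode subunits of the respiratory chain. Complex I is represented by mt-Nd1, mt-Nd2, mt-Nd4 and mt-Nd5 on the heavy-strand transcript and by mt-Nd6 on the other, complex III by mt-Cytb and complex IV by mt-Co1. They were chosen by name, and their 7 Ensembl identifiers were matched among the 11121 genes of the count table. RNA of the prefrontal cortex (PFC) and of the nucleus accumbens (NAc) was sequenced by BRB-seq. In this method each sample's oligo-dT primers hold their own barcode, and reads come from the 3′ ends of polyadenylated RNA. All mice were C57BL/6j wild-type males aged 15 weeks. Stressed mice had been through multimodal chronic restraint stress (mCRS) and the others were unstressed (CTR), which gave 15 PFC CTR, 15 PFC mCRS, 16 NAc CTR and 16 NAc mCRS libraries. Tissue came from 1 hemisphere of each animal, and which PFC and NAc libraries share a mouse is not stated, so the libraries were taken as independent. Library totals lay between 945286 and 4857359 counts. PCR copies of a read were not collapsed, so any error based on counts covers counting error only.

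The mtDNA is a small circular genome that is transcribed from both strands into long precursor RNAs. Most of the mRNAs are cut out at the tRNA genes and then polyadenylated. The heavy-strand precursor yields most of the mRNAs, while mt-Nd6 is the single protein gene read from the light-strand promoter. The encoded proteins work beside many nuclear subunits, pumping protons across the inner mitochondrial membrane so that ATP can be made, a process on which neurons depend heavily.

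On the GRCm38 mitochondrial chromosome (MT) each of the 7 is a protein-coding gene with a single exon. In the direction of the heavy-strand transcript (+ strand), mt-Nd1 (ENSMUSG00000064341) spans 2751 to 3707 and is followed by mt-Nd2 (ENSMUSG00000064345) at 3914 to 4951 and mt-Co1 (ENSMUSG00000064351) at 5328 to 6872. Further along are mt-Nd4 (ENSMUSG00000064363) at 10167 to 11544, mt-Nd5 (ENSMUSG00000064367) at 11742 to 13565 and mt-Cytb (ENSMUSG00000064370) at 14145 to 15288. The - strand holds mt-Nd6 (ENSMUSG00000064368) at 13552 to 14070. The annotation lists 13 protein-coding mtDNA genes, and the other 6 were not analysed here. The last 60 bases of 4 annotated genes are printed 5′ to 3′ in the sense of each gene, from the GENCODE transcripts of GRCm38. They are the ends of the annotated genes. Where the RNAs end, and so where a poly(A) tail begins, was not examined here. Capitals mark the stop codon, or the lone T of a stop codon that polyadenylation completes.
mt-Nd5 (MT, 13506 to 13565, +): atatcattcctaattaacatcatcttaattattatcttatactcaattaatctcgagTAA
mt-Nd6 (MT, 13552 to 13611, -): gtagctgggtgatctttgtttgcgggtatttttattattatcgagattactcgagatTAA
mt-Co1 (MT, 6813 to 6872, +): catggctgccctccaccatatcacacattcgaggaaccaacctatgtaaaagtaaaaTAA
mt-Cytb (MT, 15229 to 15288, +): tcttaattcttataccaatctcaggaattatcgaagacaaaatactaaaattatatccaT

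The first pair is shown because the ends of mt-Nd5 and mt-Nd6 overlap by 14 bases (13552 to 13565), read as ttaatctcgagtaa for mt-Nd5 and as ttactcgagattaa for mt-Nd6. Whether the authors' counting used strand is not given in the sources used here, so reads of mt-Nd6 and reads of heavy-strand RNA across it cannot be told apart. The 519 bases of mt-Nd6 held 22.2% A with no run of A longer than 3, against 29.5% to 36.9% A and longest runs of 5 to 8 in the other 6 genes. mt-Co1 is shown because 42.1% of its 70-base windows, the last 231 of 231 among them, also occur exactly in other annotated transcripts (Gm29216 and Gm13340 on the nuclear chromosomes 1 and 2). A read from such a window maps to more than one place, and only uniquely mapped reads were counted. In mt-Nd4, 61.7% of windows had a copy (Gm28439, chromosome 1) but 0 of the last 231, and in mt-Nd2 6.19% had one, 60 of them among the last 231. mt-Cytb is shown as a gene with no such copy, as were mt-Nd1 and mt-Nd6. What these copies and overlaps do to the counts was not tested.

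The tissues matched their labels with 1 exception. Summed over 9 markers of striatal projection neurons, NAc CTR libraries lay between 3754 and 8644 CPM (counts scaled to a common library total) and PFC CTR libraries between 264 and 1267, while NAc CTR 7 held 550. Summed over 7 markers of cortical excitatory neurons, the 15 PFC CTR libraries lay between 1303 and 1836 CPM and the NAc CTR libraries between 17.3 and 303, NAc CTR 7 included. In mCRS libraries the striatal markers summed to 2780 to 7564 CPM in the NAc and 305 to 1143 CPM in the PFC. The cortical markers summed to 931 to 1829 CPM in PFC mCRS and 56.5 to 678 CPM in NAc mCRS libraries. NAc mCRS 8 (678) and NAc mCRS 15 (521) lay above the NAc CTR range. In NAc CTR against PFC CTR, 9 of 9 striatal markers were higher and 6 of 7 cortical markers were lower at a Benjamini-Hochberg false discovery rate (FDR) below 0.05 with edgeR's quasi-likelihood test. Over all genes tested, 1.89% were higher and 3.56% lower at that threshold. Of the other cell types, 1 of 6 astrocyte markers was higher (0 without NAc CTR 7) and 1 of 4 erythrocyte markers lower in NAc CTR at an FDR below 0.05, and 0 of 8 microglial and 0 of 6 endothelial markers were called. Without NAc CTR 7 the counts of the striatal and cortical lists were again 9 and 6. In bulk tissue, fewer cells of a type and less RNA per cell cannot be told apart.

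The mtDNA genes were among the most counted RNAs, with 18720906 counts or 11.9% of all counts in the 62 libraries. Their share of a library was highest in the PFC of stressed mice. It ran from 8.86% through a median of 11.97% to 18.2% in PFC CTR, and from 10.2% through 15.7% to 22.9% in PFC mCRS. In the NAc it ran from 8.43% through 10.4% to 12.2% in CTR and from 7.89% through 10.3% to 13.4% in mCRS libraries. In the PFC, 14 of 15 mCRS libraries lay above the CTR median but only 4 above the highest CTR library, so the groups overlapped widely. All 16 NAc mCRS libraries lay below the median of PFC mCRS.

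Levels of different genes were ordered both as CPM, scaled by edgeR's TMM factors, and as CPM per kb of gene, since reads taken from 3′ ends need not grow in number with gene length. By CPM the order of means was the same in the 4 groups. In PFC CTR it was mt-Cytb with 36692 ± 11584 CPM (mean ± SD, n = 15), mt-Nd4 with 32641 ± 12106, mt-Nd1 with 26370 ± 7910, mt-Nd2 with 23871 ± 5850, mt-Nd5 with 10923 ± 2483, mt-Co1 with 3670 ± 1356 and mt-Nd6 with 308 ± 182. In PFC mCRS the means ran from 49065 CPM for mt-Cytb to 461 for mt-Nd6, in NAc CTR from 27047 to 247 and in NAc mCRS from 27692 to 207. mt-Cytb exceeded mt-Nd4 in 12 of 15 and 13 of 15 PFC libraries and in 16 of 16 and 15 of 16 NAc libraries (CTR and mCRS). mt-Nd4 exceeded mt-Nd1 in 14 of 15, 15 of 15, 16 of 16 and 16 of 16 libraries of the same groups. mt-Nd1 and mt-Nd2 were the neighbours least set apart, with mt-Nd1 ahead in 9 of 15, 11 of 15, 9 of 16 and 10 of 16 libraries.

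Division by length changed the middle of this order but not its ends. In PFC CTR, mt-Cytb was again first with 32073 ± 10126 CPM per kb (mean ± SD, n = 15), but mt-Nd1 with 27555 ± 8265 came before mt-Nd4 with 23687 ± 8785 and mt-Nd2 with 22997 ± 5636. mt-Nd5 followed with 5988 ± 1361, mt-Co1 with 2375 ± 878 and mt-Nd6 with 594 ± 352 CPM per kb. mt-Nd4 and mt-Nd2 were hardly set apart on this scale, with mt-Nd4 ahead in 7 of 15 PFC CTR and 8 of 15 PFC mCRS libraries. In both NAc groups the mean of mt-Nd2 was above that of mt-Nd4. On both scales mt-Nd5 exceeded mt-Co1 and mt-Co1 exceeded mt-Nd6 in each of the 62 libraries. The place of mt-Co1 is to be read beside the copies of its 3′ end in other transcripts, from which reads do not map uniquely, and their part in its count was not tested.

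The make-up of the mtDNA counts was similar in the 4 groups. mt-Cytb, the cytochrome b at the core of complex III, held a mean of 27.1% to 27.8% of mtDNA counts in the 4 groups. mt-Nd4 held 23.7% to 23.99%, mt-Nd1 19.1% to 19.9%, mt-Nd2 17.7% to 18.0%, mt-Nd5 7.59% to 8.97%, mt-Co1 2.65% to 2.86% and mt-Nd6 0.202% to 0.265%. The share of mt-Cytb was the steadiest, with an SD of its log2 share of 0.059 to 0.12 within the groups, and that of mt-Nd6 the most variable, with 0.56 to 0.86. PFC CTR 8 stood apart: it had 116842 counts of mt-Nd1, 38.4% of its mtDNA counts, against 15.5% to 22.3% in the other 61 libraries, and 2.94 counts of mt-Nd1 per count of mt-Nd2 against at most 1.60 elsewhere. The other 14 PFC CTR libraries had 18.6% ± 1.24 (SD) of mt-Nd1.

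**Figure D1:**
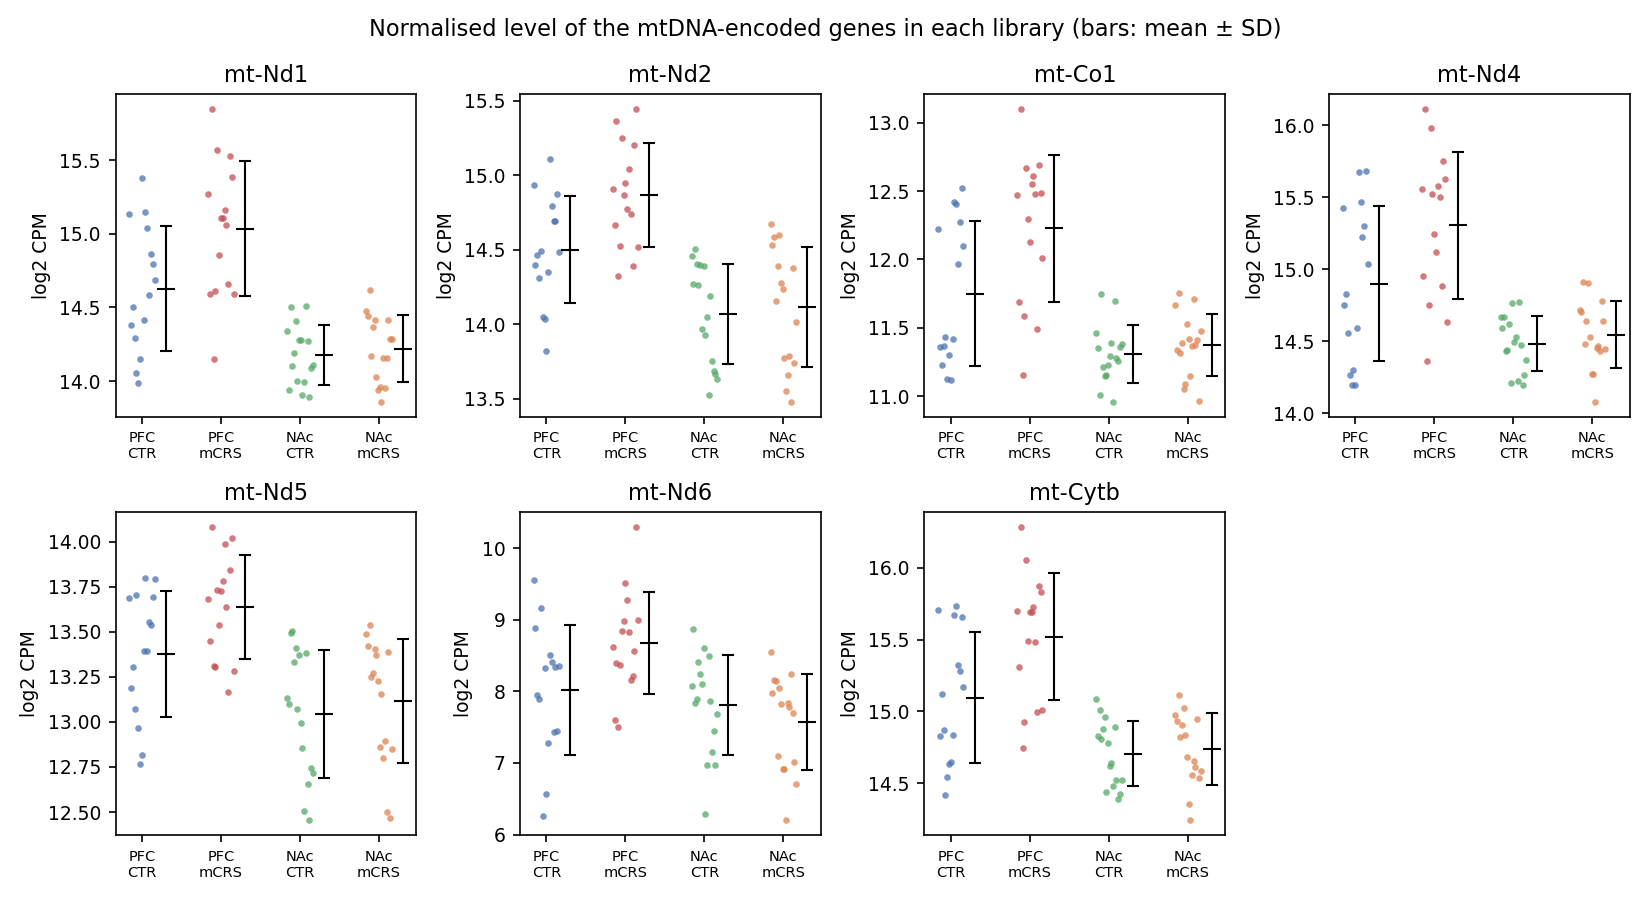
Normalised level of each gene as log2 CPM (vertical axes) in every library (points) of the 4 groups, with bars for the mean ± SD. PFC mCRS libraries lie highest for all 7 genes, the PFC groups overlap, and mt-Nd6 spreads most.

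In the PFC, all 7 mtDNA genes had higher mean levels after mCRS than in CTR mice, with log2 fold changes from 0.25 for mt-Nd5 to 0.59 for mt-Nd6. Each had an unadjusted p below 0.05 with edgeR's quasi-likelihood test, where 2.12% of the 8916 genes tested were higher at that threshold. The 7 are not independent of each other, since pairs of heavy-strand genes had Pearson r of 0.82 to 0.96 over PFC mCRS libraries. None of the 7 reached an FDR below 0.05 and nor did any other gene (0% of 8916). The unadjusted count over all genes was 312 with edgeR and 439 with DESeq2, and DESeq2 gave 5 genes, 0 of them mtDNA genes, an adjusted p below 0.05 but left 8297 genes without one. The median log2 fold change of the 7 was 0.42, beside -0.01 over all genes tested.

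The complex I genes of the heavy strand are taken first. mt-Nd1, a membrane subunit beside the ubiquinone site, ran from 13.99 through a median of 14.58 to 15.38 log2 CPM in PFC CTR and from 14.15 through 15.11 to 15.85 in PFC mCRS. Of the 15 mCRS libraries, 14 lay above the CTR median and 4 above the highest CTR library. The log2 fold change was 0.42 (SE 0.12, p = 0.0014, FDR = 0.665 with edgeR), and without PFC CTR 8 it was 0.49. mt-Nd2, a proton-pumping subunit, ran from 13.82 through 14.48 to 15.11 log2 CPM in CTR and from 14.33 through 14.87 to 15.45 in mCRS. Here 13 of 15 mCRS libraries were above the CTR median, and the log2 fold change was 0.37 (SE 0.10, p = 0.000708, FDR = 0.56 with edgeR). mt-Nd4, another proton-pumping subunit, ran from 14.19 through 14.83 to 15.68 in CTR and from 14.36 through 15.50 to 16.12 log2 CPM in mCRS. With 12 of 15 mCRS libraries above the CTR median and 3 above its highest library, its log2 fold change was 0.40 (SE 0.14, p = 0.00757, FDR = 0.947 with edgeR). mt-Nd5, the subunit at the far end of the membrane arm, ran from 12.77 through 13.39 to 13.80 in CTR and from 13.17 through 13.68 to 14.08 log2 CPM in mCRS. It had the smallest log2 fold change of the 7, 0.25 (SE 0.10, p = 0.0118, FDR = 0.9997 with edgeR), with 11 of 15 mCRS libraries above the CTR median.

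For complex III, mt-Cytb ran from 14.42 through 15.12 to 15.73 log2 CPM in PFC CTR and from 14.75 through 15.69 to 16.28 in PFC mCRS. Its log2 fold change was 0.43 (SE 0.12, p = 0.00114, FDR = 0.599 with edgeR), and 11 of 15 mCRS libraries were above the CTR median. For complex IV, mt-Co1, the catalytic subunit of cytochrome c oxidase, ran from 11.11 through 11.43 to 12.53 in CTR and from 11.15 through 12.47 to 13.10 log2 CPM in mCRS. In 14 of 15 mCRS libraries it was above the CTR median and in 5 above the highest CTR library, the most of the 7 genes. Its log2 fold change was 0.48 (SE 0.15, p = 0.00301, FDR = 0.854 with edgeR). The PFC CTR libraries themselves fell apart for mt-Co1, with 8 libraries up to 11.43, a gap of 0.53 on the log2 scale, and 7 libraries from 11.97 upward.

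mt-Nd6, the light-strand subunit of complex I, had the largest mean change and the widest spread. It ran from 6.26 through 8.32 to 9.56 log2 CPM in PFC CTR and from 7.50 through 8.62 to 10.29 in PFC mCRS. The log2 fold change was 0.59 (SE 0.25, p = 0.0208, FDR = 0.9997 with edgeR), 11 of 15 mCRS libraries lay above the CTR median, and 1 library, PFC mCRS 14, lay above the highest CTR library by itself. Without PFC mCRS 14 the log2 fold change was 0.40 (p = 0.0973 with edgeR) and 6 of the 7 genes had an unadjusted p below 0.05.

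A measure that moved with the PFC levels was the share of listed genes with a count, which was 87.1% ± 4.42 in PFC CTR and 82.3% ± 6.22 in PFC mCRS libraries (SD, n = 15 each). With that share as a covariate, 2 of the 7 genes, mt-Nd2 and mt-Cytb, had an unadjusted p below 0.05. The log2 fold changes of mt-Nd1, mt-Co1, mt-Nd4, mt-Nd5 and mt-Nd6 were 0.21, 0.21, 0.16, 0.15 and 0.53. The percent of all genes with such a p was not taken in this fit. The part of the share of listed genes in the result was not tested beyond it. The mean log2 CPM of the 7 genes was 0.43 higher in mCRS (SE 0.15) without the covariate and 0.26 with it. Markers of some cell types had lower means in PFC mCRS. Of the 7 markers of cortical excitatory neurons, 6 had lower means in PFC mCRS, none at an unadjusted p below 0.05 with edgeR, and their summed level was 1303 to 1836 CPM in CTR and 931 to 1829 CPM in mCRS libraries. All 6 astrocyte markers had lower means, with summed levels of 2555 to 4379 CPM in CTR and 2028 to 4272 CPM in mCRS libraries. Of these, 1 had an unadjusted p below 0.05, where 3.5% of all genes did in either direction. It was the glutamate transporter Slc1a3 (-0.51, SE 0.17, p = 0.00429 with edgeR, named after its value was seen). Of the striatal and microglial lists, 1 of 9 and 1 of 8 markers were higher at such a p. No oligodendrocyte, endothelial or erythrocyte marker had one. No marker of any list had an FDR below 0.05 in this comparison, and the part of these cell types in the result was not tested.

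In the NAc, no mtDNA gene differed between mCRS and CTR mice by more than the spread between libraries. With edgeR, 0 of the 7 genes had an unadjusted p below 0.05, where 2.04% of the 10141 genes tested did (207 with edgeR, 338 with DESeq2). An FDR below 0.05 was reached by 1 gene (0.00986%), which was not an mtDNA gene, and DESeq2 called 0 genes at an adjusted p below 0.05. The 6 heavy-strand genes had log2 fold changes of 0.03 to 0.07. mt-Cytb ran from 14.39 through 14.71 to 15.09 log2 CPM in NAc CTR and from 14.24 through 14.76 to 15.12 in NAc mCRS, with 8 of 16 mCRS libraries above the CTR median. mt-Nd1 ran from 13.89 through 14.15 to 14.51 in CTR and from 13.86 through 14.23 to 14.62 log2 CPM in mCRS. mt-Nd6 alone had a lower mean, with 6.28, 7.88 and 8.87 log2 CPM as lowest, median and highest values in CTR and 6.20, 7.80 and 8.55 in mCRS, a log2 fold change of -0.25 (SE 0.21, p = 0.242 with edgeR). Without NAc CTR 7 the count of the 7 genes with an unadjusted p below 0.05 was still 0. The groups overlapped for each of the 7 genes, with 5 of 16 mCRS libraries outside the CTR range for mt-Nd2, 4 for mt-Nd4, 3 for mt-Cytb, 2 for mt-Nd1 and 1 each for mt-Co1, mt-Nd5 and mt-Nd6.

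The effect of mCRS was compared between the regions as an interaction over the 62 libraries. The estimates were positive for all 7 genes, that is, more positive in the PFC. Those of mt-Nd1 (0.37, SE 0.15, p = 0.0135), mt-Co1 (0.40, SE 0.18, p = 0.0259), mt-Nd6 (0.83, SE 0.34, p = 0.0162) and mt-Cytb (0.39, SE 0.15, p = 0.0108) had an unadjusted p below 0.05 with edgeR, 4 of 7 where 1.45% of the 11025 genes did in that direction. The mtDNA genes are not independent of each other here either. No mtDNA gene had an FDR below 0.05, and 1 gene of all did (0.00907%) with edgeR and 1 with DESeq2. mt-Nd2 (0.30, p = 0.0508) and mt-Nd4 (0.32, p = 0.051) lay close to the threshold, and mt-Nd5 had 0.18 (p = 0.215 with edgeR). The interaction of mt-Co1 was 0.33 (p = 0.0633) without PFC mCRS 3, and that of mt-Nd6 was 0.63 (p = 0.0616) without PFC mCRS 14, and 3 genes had an unadjusted p below 0.05 in either case. Without NAc CTR 7 there were 5 such genes.

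Between the regions of unstressed mice, mtDNA genes were lower in the NAc. Of 7 mtDNA genes, 6 had an edgeR FDR below 0.05, where 3.56% of the 11025 genes tested were lower at that threshold, and the median log2 fold change was -0.44 beside 0.04 over all genes. The changes were -0.50 for mt-Nd1 (SE 0.10, FDR = 0.000344), -0.44 for mt-Nd2 (SE 0.11, FDR = 0.00364), -0.50 for mt-Nd4 (SE 0.12, FDR = 0.00169), -0.33 for mt-Nd5 (SE 0.10, FDR = 0.0353), -0.44 for mt-Cytb (SE 0.10, FDR = 0.00244) and -0.52 for mt-Co1 (SE 0.13, FDR = 0.00307). mt-Nd6 had -0.32 (SE 0.24, FDR = 0.696). Again the genes are not independent of each other. All 16 NAc CTR libraries lay below the PFC CTR median for mt-Nd1, mt-Nd4 and mt-Cytb, 15 for mt-Nd2, 13 for mt-Co1 and mt-Nd5 and 12 for mt-Nd6. The groups still overlapped, since at most 5 of 16 NAc CTR libraries lay below the lowest PFC CTR library. Without NAc CTR 7, 6 genes had an FDR below 0.05. With RLE size factors in place of TMM 5 did, with mt-Nd5 at -0.26 (FDR = 0.192 with edgeR). DESeq2 gave 3 of them, mt-Nd1, mt-Co1 and mt-Nd4, an adjusted p below 0.05. Markers of oligodendrocytes moved with the region too: 5 of 7 were higher in NAc CTR at an FDR below 0.05, with or without NAc CTR 7, and their summed level was 5439 to 8798 CPM in NAc CTR and 1506 to 6129 CPM in PFC CTR libraries. Their part in the regional difference was not tested.

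Estimates of the regional difference and of the change after mCRS in the PFC differed between libraries numbered 1 to 8 and those numbered 9 and above. Tests of these differences are given below. The labels do not describe the numbers as a batch, and what they mark was not tested. In PFC CTR the mtDNA share of counts was 11.1% ± 2.36 in the 8 libraries numbered 1 to 8 and 14.9% ± 2.33 in the 7 numbered 9 and above (SD). In PFC mCRS it was 16.003% ± 4.30 (n = 8) and 16.1% ± 3.07 (n = 7). In the NAc the order was the opposite, with 11.1% ± 1.01 and 9.51% ± 1.09 in CTR and 11.7% ± 1.23 and 9.60% ± 1.22 in mCRS libraries (SD, n = 8 each). Of the 7 PFC CTR libraries above the gap in mt-Co1, 6 were numbered 9 and above. The sets also differed in library total. Median totals for numbers 1 to 8 and for 9 and above were 2890708 and 2039317 counts for PFC CTR libraries. They were 2196416 and 1639280 for PFC mCRS, 2018749 and 4221932 for NAc CTR and 2517318 and 2767658 for NAc mCRS libraries. In this order of groups, r of log2 total with mean log2 CPM of the 7 genes was -0.67, -0.25, -0.72 and 0.12. What part totals had in the differences between sets was not tested.

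**Figure D2:**
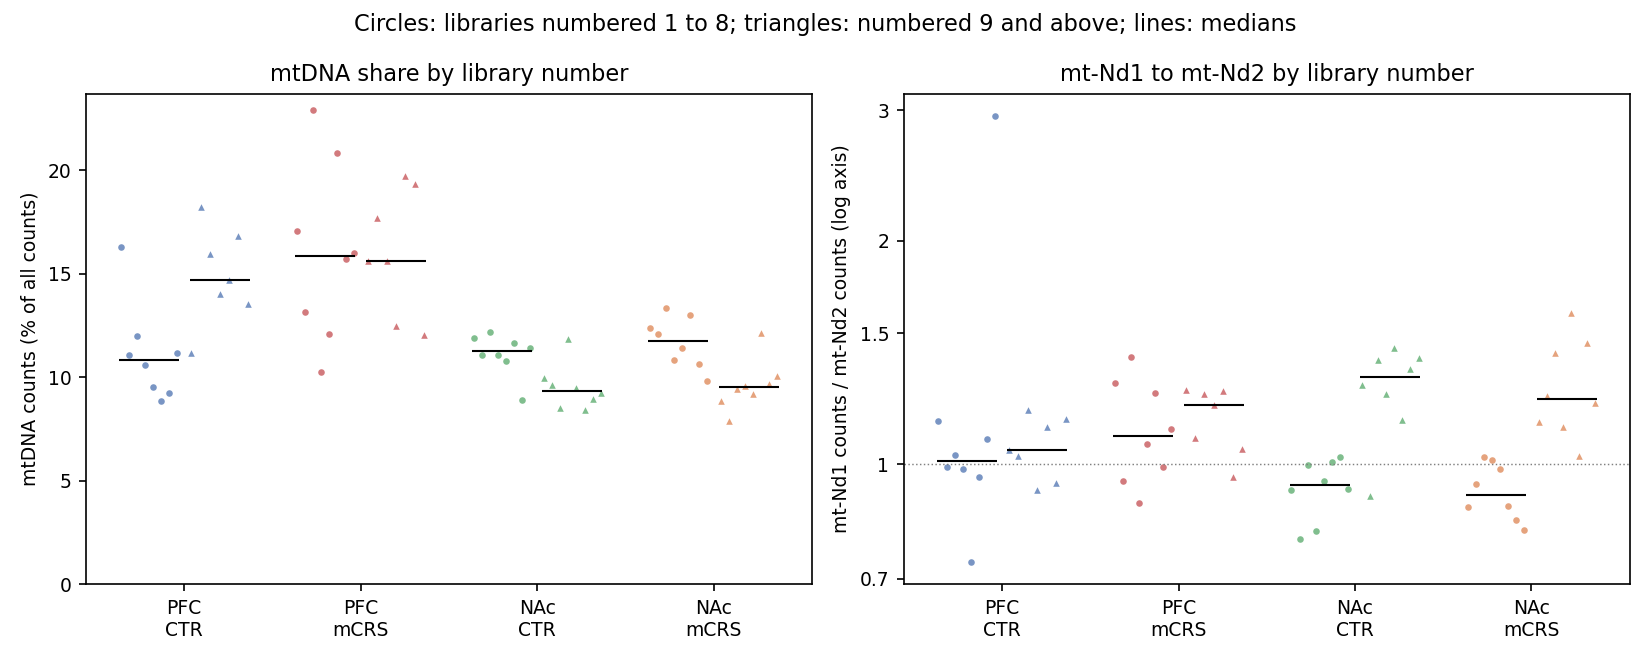
Percent of all counts from the 7 mtDNA genes (left) and counts of mt-Nd1 per count of mt-Nd2 on a log axis (right), for each library of the 4 groups, split at number 9, with lines at the medians. PFC CTR libraries numbered 9 and above lie above most of those numbered 1 to 8, while in the NAc the mtDNA share is lower and the ratio higher in libraries numbered 9 and above.

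Within the libraries numbered 1 to 8, 0 of the 7 genes differed between NAc CTR and PFC CTR at an FDR below 0.05, with log2 fold changes from -0.36 for mt-Nd1 to 0.07 for mt-Nd5. Within those numbered 9 and above, 6 did, with a median log2 fold change over the 7 genes of -0.84. The percent of all genes called was not taken within either set. The difference between the regional differences of the sets was itself tested, in a fit of 8 groups chosen after seeing the data. It was -0.90 for mt-Nd2 (SE 0.17, FDR = 0.00789) and -0.87 for mt-Nd5 (SE 0.17, FDR = 0.00789), the 2 genes of 11025 (0.0181%) with an FDR below 0.05 in edgeR. Within PFC CTR, libraries numbered 9 and above were higher for mt-Co1 (log2 difference 0.76, SE 0.16, FDR = 0.0236) and mt-Nd4 (0.70, SE 0.15, FDR = 0.0236), which were 2 of 7 genes called among 11025 (0.0635%).

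Estimates of the change after mCRS in the PFC also differed by number, though 0 of the 7 genes had an FDR below 0.05 for that difference. In libraries numbered 1 to 8 the log2 fold changes were 0.52 for mt-Nd1, 0.54 for mt-Nd2, 0.82 for mt-Co1, 0.79 for mt-Nd4, 0.39 for mt-Nd5, 0.17 for mt-Nd6 and 0.70 for mt-Cytb. In libraries numbered 9 and above they were 0.30, 0.18, 0.18, 0.02, 0.10, 1.04 and 0.14 in the same order. An unadjusted p below 0.05 was reached by 6 genes in the first set and by 2, mt-Nd1 and mt-Nd6, in the second. So the heavy-strand genes had their larger changes in the set in which mt-Nd6 had its smaller one. The difference of mCRS effects between the sets had an edgeR FDR of 0.165 for mt-Nd4 (-0.77, SE 0.21, p = 0.000477) and 0.398 for mt-Cytb (-0.56, SE 0.19, p = 0.00411). The FDR was 0.493 for mt-Co1 (-0.64, SE 0.23, p = 0.0074), 0.811 for mt-Nd2 (-0.36, SE 0.17, p = 0.0407) and 0.906 for mt-Nd6 (0.86, SE 0.47, p = 0.068). For mt-Nd5 and mt-Nd1 the edgeR p was 0.0932 and 0.272. Of all genes, 5.96% had an unadjusted p below 0.05 in this test. None of the 7 had an FDR below 0.05, while 9 of 11025 genes did (0.0816%). In the interaction of region and mCRS, 5 genes had an unadjusted p below 0.05 within numbers 1 to 8 and 2 within numbers 9 and above. For these counts, and for those of the PFC change within each set, the percent of all genes at that threshold was not taken. In the columns of the count table, PFC mCRS 8 stands with the libraries numbered 9 and above. With PFC mCRS 8 moved to that set, a choice made after seeing the data, the change of mt-Nd6 was -0.02 in the first set and 1.09 in the second, and that of mt-Nd4 was 0.82 and 0.01. The difference of mCRS effects was then -0.80 for mt-Nd4 (FDR = 0.102) and 1.11 for mt-Nd6 (FDR = 0.65 with edgeR).

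**Figure D3:**
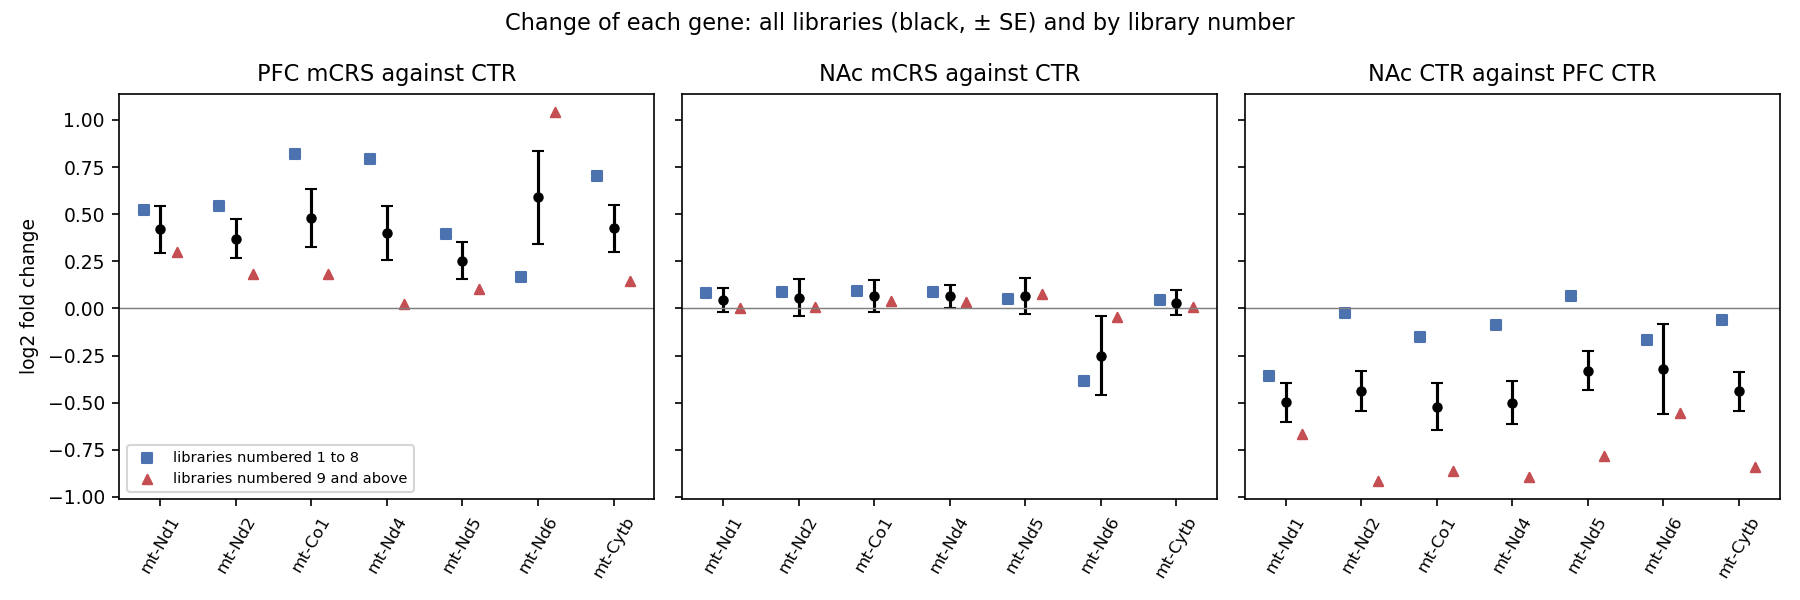
Log2 fold change of each gene (vertical axis) in PFC mCRS against CTR, NAc mCRS against CTR and NAc CTR against PFC CTR. Black points with bars give the edgeR estimate ± SE over all libraries, squares the estimate within libraries numbered 1 to 8 and triangles that within libraries numbered 9 and above, which differ most in the PFC and between the regions.

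The number also went with the balance of mt-Nd1 and mt-Nd2, neighbours on the heavy-strand transcript. In the NAc, mt-Nd1 had more counts than mt-Nd2 in 2 of 8 CTR and 2 of 8 mCRS libraries numbered 1 to 8. Among those numbered 9 and above it did so in 7 of 8 CTR and 8 of 8 mCRS libraries. The median ratio of mt-Nd1 to mt-Nd2 counts was 0.938 and 1.31 in the NAc CTR sets and 0.909 and 1.22 in the NAc mCRS sets. In the PFC, mt-Nd1 was ahead in 4 of 8 and 5 of 7 CTR and in 5 of 8 and 6 of 7 mCRS libraries.

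The ratio of heavy-strand to light-strand counts was taken as the summed counts of the 6 heavy-strand genes over the counts of mt-Nd6. How well oligo-dT primers capture mt-Nd6 RNA beside the other RNAs was not tested, so it is a ratio of counts only. The ratio varied far more between libraries than between groups. In the PFC, mt-Nd6 had 258 to 1423 counts in CTR libraries (median 687) and 328 to 2375 in mCRS libraries (median 778). In the NAc it had 296 to 1751 (median 639) and 123 to 950 counts (median 586.5). There were 171 heavy-strand counts per mt-Nd6 count in PFC CTR 5, the lowest library, and 1226 in NAc CTR 9, the highest, a 7.17-fold range. The lowest, median and highest values in the PFC were 171, 498 and 1179 in CTR and 174, 434 and 829 in mCRS libraries. In the NAc they were 215, 436 and 1226 in CTR and 283, 469 and 1030 in mCRS libraries. The groups overlapped over nearly their whole range. The mean log2 ratio was 8.96 ± 0.86 for CTR and 8.69 ± 0.64 for mCRS in the PFC (SD, n = 15 each), and 8.76 ± 0.66 and 9.05 ± 0.56 in the NAc (SD, n = 16 each). Counting error was small beside this: from the mt-Nd6 counts alone it gave a mean SD of 0.06 on the log2 scale in PFC CTR, and 0.05 to 0.07 in the other groups.

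**Figure D4:**
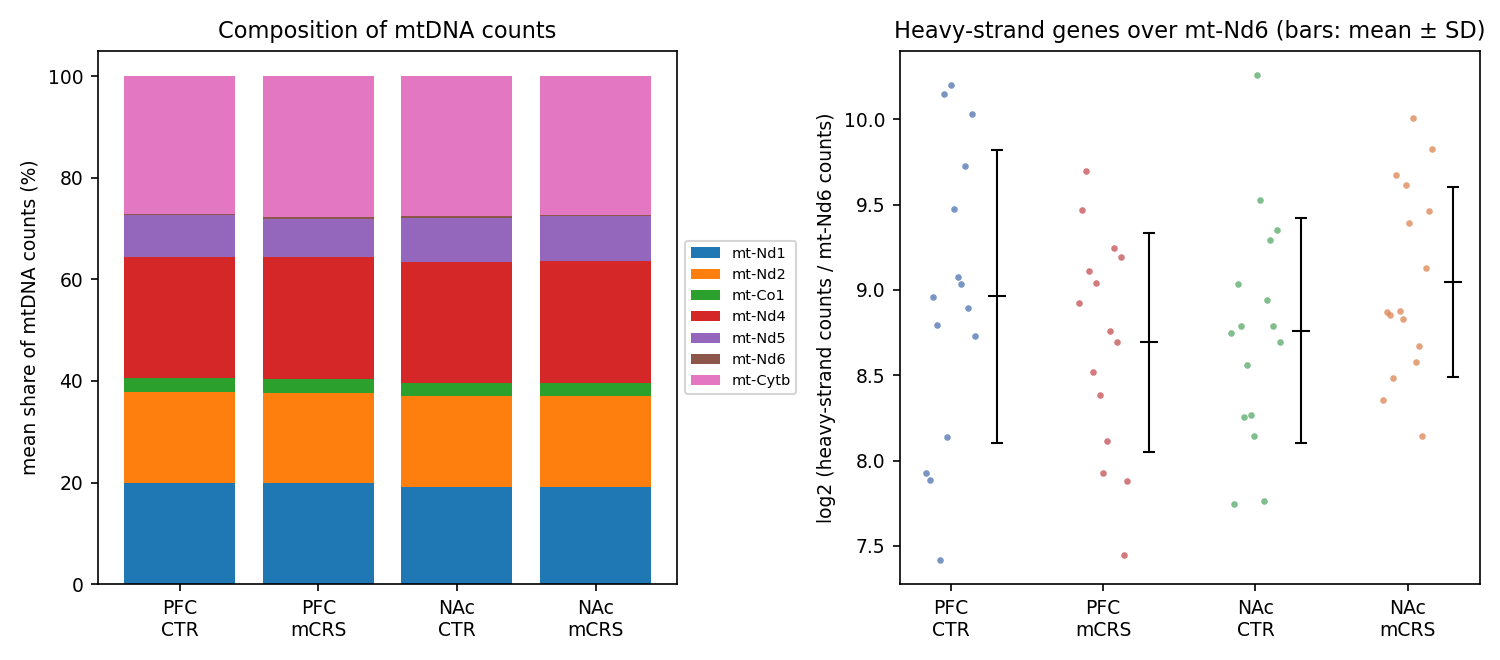
Mean share of each gene in the mtDNA counts of the 4 groups (left, stacked to 100%) and log2 of heavy-strand counts over mt-Nd6 counts in each library (right, points, with bars for the mean ± SD). The make-up is nearly the same in the groups, and the ratios spread from 7.42 to 10.26 with overlapping groups.

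The mean log2 ratio was 0.27 lower after mCRS in the PFC (difference -0.27, SE 0.28) and 0.29 higher in the NAc (SE 0.22). It differed by -0.20 (SE 0.28) between NAc CTR and PFC CTR. In the PFC the difference was 0.20 within libraries numbered 1 to 8 and -0.81 within those numbered 9 and above. Each heavy-strand gene was then set against mt-Nd6 by itself, in 24 two-sided permutation tests (6 genes, 4 comparisons, 100000 resamples, adjusted together). None had an adjusted p below 0.05, and the smallest was 0.437. The difference between the regions in the mCRS effect on mt-Nd5 over mt-Nd6, the genes whose ends overlap, had the 1 unadjusted p below 0.05 (log2 difference -0.71, SE 0.35, p = 0.0449, adjusted p = 0.437). In the PFC the 6 differences ran from -0.39 for mt-Nd5 to -0.18 for mt-Co1, and in the NAc from 0.27 for mt-Cytb to 0.31 for mt-Nd5. The 6 ratios share the mt-Nd6 count as their denominator and are not independent of each other. With SEs of 0.21 to 0.30 within a region, a change in the ratio of this size was not detectable.

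Over libraries of a group, the heavy-strand genes varied together. All values of a library share its scaling, so these correlations of log2 CPM describe common variation only. The 84 pairs of the 4 groups were tested by permutation and adjusted together, and differences in correlation between groups were not tested. Among the 15 heavy-strand pairs, the median Pearson r in the PFC was 0.76 for CTR (0.28 to 0.97) and 0.91 for mCRS (0.82 to 0.96). In the NAc it was 0.67 for CTR (0.06 to 0.92) and 0.70 for mCRS (0.08 to 0.90). In this order of groups, at an adjusted p below 0.05 for r there were 12, 15, 9 and 8 of 15 pairs, and for Spearman's rho 11, 15, 9 and 10. Over all 21 pairs with mt-Nd6 the counts for r were 12, 16, 9 and 10, and they were 14 in PFC CTR without PFC CTR 8 and 9 in NAc CTR without NAc CTR 7. For rho, the heavy-strand pairs numbered 13 and 9 without these libraries. After regression on the share of listed genes with a count, the counts for r over the 21 pairs were 9, 16, 10 and 10. The closest pair in PFC CTR was mt-Nd4 and mt-Cytb, with r = 0.97 (rho = 0.93, adjusted permutation p = 6.46e-05, n = 15, from the smallest p that the resamples can give), and r = 0.96 without the 2 libraries farthest from the median of mt-Nd4. Elsewhere r for these genes was 0.94 (PFC mCRS), 0.82 (NAc CTR) and 0.88 (NAc mCRS). Within numbers, the median r of the 15 pairs for numbers 1 to 8 and for 9 and above was 0.70 and 0.84 in CTR and 0.97 and 0.89 in mCRS libraries of the PFC. In the NAc it was 0.58 and 0.78 in CTR and 0.83 and 0.37 in mCRS libraries.

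**Figure D5:**
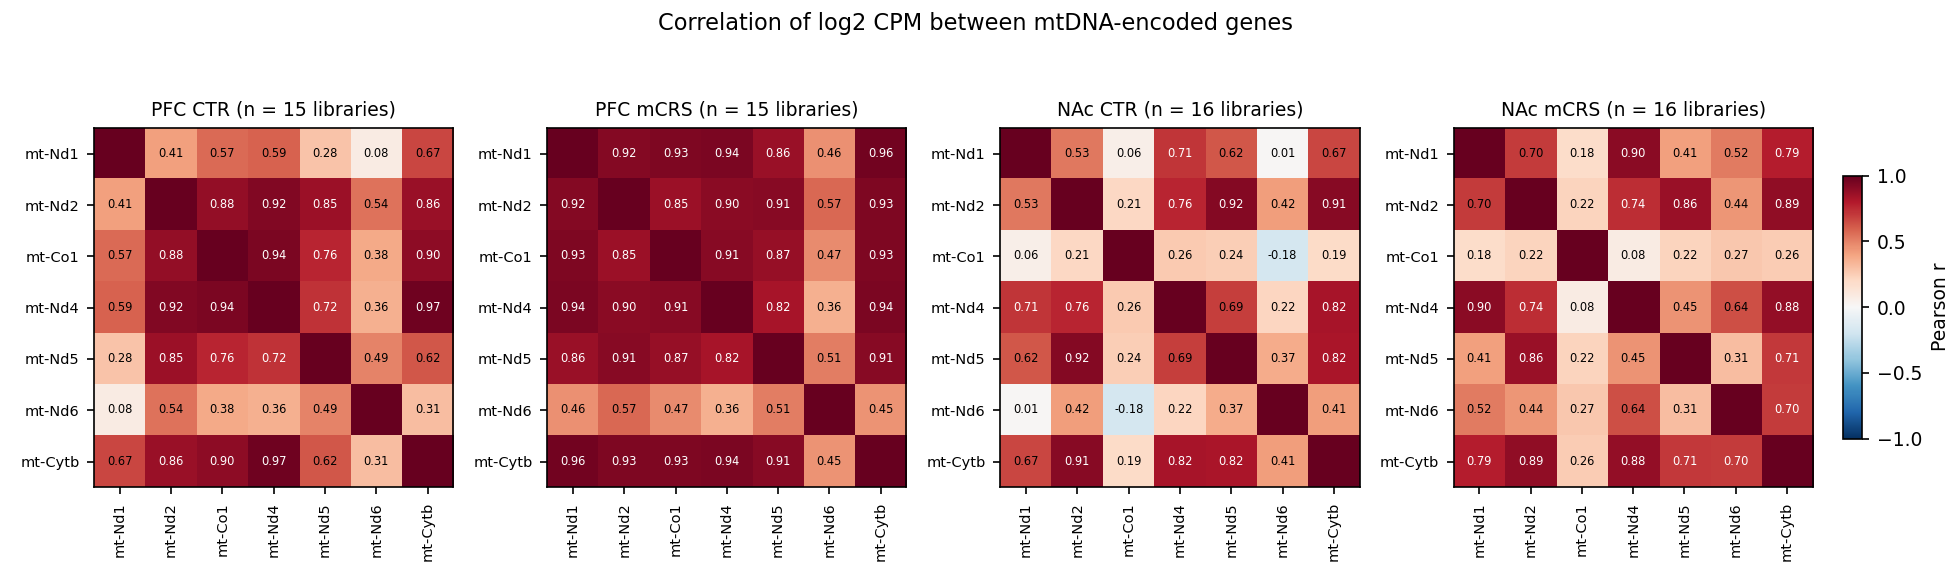
Pearson r of log2 CPM between each pair of mtDNA genes over the libraries of each group (colour and printed value). The mt-Nd6 row is paler than most heavy-strand rows in all 4 panels, and the mt-Co1 row is paler still in both NAc panels.

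The r values of mt-Nd6 in each group, and of mt-Co1 in the NAc, were lower. The median r of mt-Nd6 with the 6 heavy-strand genes was 0.37 and 0.46 for PFC libraries of CTR and of mCRS mice. For NAc libraries it was 0.29 and 0.48. At an adjusted permutation p below 0.05 there were 0, 1, 0 and 2 of its 6 pairs. The highest was with mt-Cytb in NAc mCRS (r = 0.70, rho = 0.62, adjusted permutation p = 0.00692, n = 16), which was 0.55 without the 2 farthest libraries. mt-Co1 followed the other heavy-strand genes in the PFC, with r of 0.57 to 0.94 in CTR and 0.85 to 0.93 in mCRS. In the NAc its r was 0.06 to 0.26 in CTR and 0.08 to 0.26 in mCRS, and 0 of its 5 pairs in either group had an adjusted p below 0.05. Within NAc CTR the median of these 5 values was 0.03 for libraries numbered 1 to 8 and 0.77 for those numbered 9 and above, and within NAc mCRS 0.30 and 0.26. mt-Nd1 and mt-Nd2 had r = 0.41 in PFC CTR (rho = 0.51, adjusted permutation p = 0.173, n = 15), and r = 0.87 without the 2 libraries farthest from the median of mt-Nd1, one of them PFC CTR 8.

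The nuclear subunits of the same complexes gave a measure of mitonuclear balance. Of those in PFC mCRS against CTR, 26 of 36 complex I, 7 of 9 complex III and 10 of 11 complex IV subunits had higher means, with 5, 2 and 6 of them higher at an unadjusted p below 0.05, where 2.12% of all genes were, and 0 at an FDR below 0.05 with edgeR. Their median log2 fold changes were 0.20, 0.26 and 0.36, beside 0.42 for the mtDNA genes and -0.01 over all genes. The subunits with the smallest p were Ndufv2 of the flavin-bearing part of complex I (0.60, p = 0.00252), Uqcrb of complex III (0.83, p = 0.000469) and Cox7b of complex IV (0.77, p = 0.00198). Averaged over genes as log2 CPM, the 7 mtDNA genes exceeded the 56 nuclear subunits by 5.57 ± 0.22 in PFC CTR and 5.83 ± 0.21 in PFC mCRS (SD, n = 15 each), a difference of 0.26 (SE 0.079). It was 0.38 within libraries numbered 1 to 8, 0.13 within those numbered 9 and above and 0.18 with the share of detected genes as covariate. In 13 of 15 mCRS libraries the value was above the CTR median. In the NAc the values were 5.38 ± 0.42 and 5.33 ± 0.38 (SD, n = 16 each, difference -0.05, SE 0.14). In the NAc, 0, 0 and 1 of the nuclear subunits had an unadjusted p below 0.05, where 2.04% of all genes did, and the counts were the same without NAc CTR 7. Between NAc CTR and PFC CTR, 3, 1 and 6 of the subunits were lower at an FDR below 0.05, where 3.56% of all genes were, and 2, 1 and 6 without NAc CTR 7. In the same comparison the mitonuclear difference was -0.19 (SE 0.12), with 0.23 within numbers 1 to 8 and -0.63 within numbers 9 and above.

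Factors that copy, transcribe, cut, polyadenylate or degrade mtDNA products gave no call at an FDR below 0.05. Of 40 such genes, 36 were counted, and 23 passed the filter on low counts in the PFC, 32 in the NAc and 35 over both. In PFC mCRS against CTR, 0 of 23 had an unadjusted p below 0.05 with edgeR, where 3.5% of all genes did. The smallest p values were those of Fastk, a kinase-like RNA-binding protein with a role in the processing of mt-Nd6 RNA (-0.85, SE 0.49, p = 0.0906), Ptcd2, which binds mitochondrial RNA (0.76, SE 0.47, p = 0.107), and Supv3l1, the helicase of the mitochondrial RNA degradosome (-1.51, SE 0.99, p = 0.133). In NAc mCRS against CTR, 0 of 32 had one (0 of 33 without NAc CTR 7), and the smallest were those of the exonuclease Mgme1 (1.76, p = 0.0733), Fastk (0.43, p = 0.232) and the polynucleotide phosphorylase Pnpt1 (1.12, p = 0.239). Between NAc CTR and PFC CTR, the RNA-stabilising factor Slirp (-1.17, SE 0.56, p = 0.0385), the helicase Dhx30 (0.55, SE 0.26, p = 0.0409) and the transcription factor Tfb2m (-2.49, SE 1.21, p = 0.0426) had an unadjusted p below 0.05, with edgeR FDRs of 0.324 to 0.345. These were 3 of 35 genes (2 without NAc CTR 7, when Tfb2m was not among them), in a comparison where 13.3% of all genes had such a p. In the interaction of region and mCRS, 1 of 35 had an unadjusted p below 0.05, where 3.09% of all genes did: Fastk, with -1.27 (SE 0.60, p = 0.0351 with edgeR), again the 1 gene without NAc CTR 7. The machinery genes had low counts, and all 36 together summed to 476 to 1194 CPM in PFC CTR libraries. With SEs of 0.47 to 0.99 for those named in the PFC, a change of 0.42, the median of the mtDNA genes there, was not detectable in them.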

How the data were processed

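RNA-seq counts of 11121 genes in 62 BRB-seq libraries were taken as deposited by the authors. Reads had been aligned to GRCm38/mm10 with STAR, and uniquely mapped reads were counted per gene with HTSeq, version 0.9.1 in the submitters' processing notes. The authors had left out PFC samples of poor sequencing quality. The annotation release, the strand setting of the counting and the rule that left these genes are not given in the sources used here. The counts are of reads, not of molecular identifiers.

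Groups were taken from the sample labels. Of 11121 identifiers, 11120 matched a symbol. Counts were filtered with filterByExpr, scaled by TMM and tested with edgeR 4.0.16 (glmQLFit and glmQLFTest, limma 3.58.1, R 4.3.3), fitting each region by itself for mCRS against CTR (8916 genes in the PFC, 10141 in the NAc) and the 4 groups together for NAc CTR against PFC CTR and for the interaction of region and mCRS (11025 genes). p-values were adjusted over all genes of a fit, and the steps were tested on simulated data. Log2 CPM used a prior count of 2. Ratios and correlations were tested by permutation with 100000 resamples (numpy 2.4.6, scipy 1.17.1, pandas 2.3.3 and matplotlib 3.10.9 in Python 3.11.15), adjusted over 24 ratio tests and over 84 pairs. Sequences and copies in windows of 70 bases were read from the annotated transcripts of GRCm38, since no genome sequence was used here.

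The 7 members and all gene lists were chosen with earlier results of these data known. The text names each member, machinery genes with an FDR below 0.05 or otherwise those with the 3 smallest p, the nuclear subunit with the smallest p of each complex in the PFC, and the genes whose levels were most like those of the members.

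The alternatives were DESeq2 1.42.0, RLE size factors, scaling without the mtDNA counts, other filters on low counts, other prior counts, 1 fit of all libraries, thinned counts, a replicate block, the share of genes with a count as covariate, libraries numbered 1 to 8 or 9 and above, and each library left out in turn. Library totals of 945286 to 4857359 counts set the counting error, and p-values measure the spread between libraries. No pair of libraries agreed within sampling noise.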

Additional observations from a re-analysis of the deposited data

Results flagged for a closer look

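The regional difference of mt-Nd2 was unequal between sets of libraries. The log2 fold change of NAc CTR against PFC CTR among libraries numbered 9 and above, minus that among those numbered 1 to 8, was -0.90 (SE 0.17, FDR = 0.00789 with edgeR). The same difference of differences was -0.87 for mt-Nd5 (SE 0.17, FDR = 0.00789 with edgeR). The fit of 8 groups that tested it was chosen after seeing the data, and these were the 2 genes of 11025 with an FDR below 0.05. The labels do not describe the numbers as a batch, and what they mark was not tested.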

How the results depend on the processing

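Splitting by number moved most. In the fits by number and with a covariate, the percent of all genes called was not taken, so their counts describe the 7 genes alone. NAc CTR minus PFC CTR in mean log2 CPM of the 7 genes was -0.0102 in libraries numbered 1 to 8 and -0.79 in those numbered 9 and above, in that mean minus the nuclear subunits 0.23 and -0.63, and in the mtDNA percent of counts 0.0355 and -5.41 points. Numbers 1 to 8 gave 0 regional calls of 7 and turned mt-Nd5 to 0.0665. DESeq2 gave 3. In the PFC, numbers 9 and above left 2 of 7 genes at an unadjusted p below 0.05, as did the covariate of detected genes. The interaction then had 2, with mt-Nd4 at -0.00825. With PFC mCRS 8 in the later set (chosen after seeing the data) the PFC and interaction counts were again 2 and 2, with mt-Nd6 at -0.0151 in the earlier set and the mt-Nd4 interaction at -0.0211 in the later. The causes were not tested. The covariate took the regional mt-Nd5 change to -0.27 (FDR = 0.10 with edgeR).

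Leaving out libraries in turn gave 6 to 7 calls in the PFC, 0 in the NAc, 5 to 6 between regions and 3 to 6 in the interaction. Regional mt-Nd5 lost its call in 11 of 31 such fits. Correlated pairs numbered 10 to 14, 15 to 20, 8 to 10 and 9 to 11 in PFC CTR, PFC mCRS, NAc CTR and NAc mCRS.

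With the replicate block the counts were 7, 0, 6 and 6, so mt-Nd2 (0.29, p = 0.0384) and mt-Nd4 (0.32, p = 0.0335 with edgeR) joined the interaction. Libraries of the same number were little alike. CTR and mCRS libraries, which come from different mice, correlated at -0.0466 to 0.142 in the PFC and -0.039 to 0.0701 in the NAc. PFC and NAc libraries of the same number correlated at -0.0456 to 0.0134 in CTR and -0.0257 to 0.04 in mCRS mice. Whether a number stands for a mouse was not settled by these values. A number covariate gave 7, 6 and 5 in the PFC, between regions and in the interaction. The planned restriction to genes with no copy in the genome was not run. The 3 genes with no copy in annotated transcripts, used in its place, had mean log2 changes of 0.49 in the PFC, -0.05 in the NAc and -0.35 between regions. mt-Nd6 had the fewest counts, 123 to 2375, and a mean counting SD of 0.05 to 0.07 on the log2 scale.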

Other observations

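Genes whose levels went most closely with the mean level of the 7 mtDNA genes were sought over the 62 libraries, after centring each gene on its group means, among 4438 genes with a mean log2 CPM of at least 5. The values share a library's depth and scaling and are given as descriptions. The 5 highest r values were those of the ribosomal protein gene Rpl37 (0.743), the neuronal membrane glycoprotein gene Gpm6a (0.703), the ribosomal protein gene Rps21 (0.67), the septin gene Sept7 (0.64) and Cox6c, a nuclear subunit of complex IV (0.635). The middle 95% of all 4438 genes had r between -0.353 and 0.342. Within the PFC these 5 genes had r of 0.823, 0.853, 0.772, 0.764 and 0.813, and within the NAc 0.503, 0.374, 0.349, 0.295 and 0.166, in the same order.

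The lowest r values were those of the postsynaptic scaffold gene Dlgap3 (-0.582), Hid1 (-0.554) and the kinesin motor gene Kif5a (-0.544). For Kif5a it was -0.817 in the PFC and 0.0285 in the NAc. For mt-Nd6 by itself the 3 highest were lower than those for the mean of the 7, with 0.441 for the ephrin receptor gene Epha5, 0.42 for Chmp5 and 0.413 for Tmem30a, where the middle 95% of genes had r between -0.284 and 0.258.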
